A study of Mus musculus with 17 samples.

Results

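The subject is chromatin accessibility in the brain of the 6-OHDA-induced PD model against healthy controls (sham), measured by ATAC-seq. The members are all regions of the deposited table that carry a tag signal in each of 3 libraries, which are 3537 of 3582 listed regions. There is 1 library per group, so the spread between animals was not measured and no difference in accessibility was tested. The other 45 regions, all on chromosome X, hold a value for the 6-OHDA library only (from 1.25 to 207, median 12.5) and entered no ratio.

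The mice were wild-type ICR mice, 8 weeks old at surgery. 6-OHDA at 10 µg per µl was injected on 1 side into the substantia nigra, and the third library came from lesioned mice that received 2 µl of NDST3 vector 5 days later. It is given side by side only. The sham mice received no 6-OHDA. The sources used here do not say what the sham mice were injected with, how many animals went into a library, or which side was taken, and the tissue is labelled only as brain. The study's text refers to the ATAC-seq profiles as coming from DN (dopamine neurons), whereas its library methods describe no step that selects them. In RNA-seq from the same model, Th (tyrosine hydroxylase, which makes the dopamine precursor) stood at 158 and 185 TPM in the sham libraries and at 2.57 TPM in the 6-OHDA library. Gfap, the astrocyte filament gene, stood at 1105 and 507 TPM in sham and at 4835 TPM after the lesion. The neuronal gene Snap25 was at 2141, 2586 and 616 TPM, so transcripts of neurons and glia were present in all 3 samples. In bulk tissue, fewer cells of a type and less RNA or less open chromatin per cell cannot be told apart.

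ATAC-seq uses a transposase that inserts adapters where DNA is not wrapped in nucleosomes, so the tag signal of a region follows how open its chromatin is. The strongest and most constant signal in most tissues lies at the start sites of housekeeping genes, many of which sit in GC-rich stretches known as CpG islands, whereas distal enhancers are weaker and differ more between cell types. 6-OHDA is a toxin taken up by catecholamine neurons through their transporters, and its injection into the nigra kills dopamine neurons and is followed by a reaction of microglia and astrocytes.

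Among the regions just upstream of a gene start, those with the largest ratios in either direction are shown first. A region was placed at a gene start where a RefSeq transcript start of GRCm38 (mm10) lay within 1000 bases of its centre. The 4 highest and 4 lowest ratios come from 136 regions that lay within 500 bases upstream of a start, overlapped no exon and had at least the median signal. Here and below, the mean signal of a region is taken over the sham, 6-OHDA and 6-OHDA+NDST3 libraries. A region weak in sham, such as that of Nupr1, could therefore pass through its lesioned values. Sequences are from RefSeq GRCm38, plus strand, and capitals mark CG dinucleotides.
Tent4b, chr8:88199695-88199794: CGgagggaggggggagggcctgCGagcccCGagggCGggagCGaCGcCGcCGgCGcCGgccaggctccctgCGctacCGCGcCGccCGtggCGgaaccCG
Nupr1, chr7:126625552-126625709: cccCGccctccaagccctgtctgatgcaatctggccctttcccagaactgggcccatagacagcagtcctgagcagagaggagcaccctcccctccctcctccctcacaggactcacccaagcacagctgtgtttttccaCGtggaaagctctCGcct
Tent4b, chr8:88199594-88199693: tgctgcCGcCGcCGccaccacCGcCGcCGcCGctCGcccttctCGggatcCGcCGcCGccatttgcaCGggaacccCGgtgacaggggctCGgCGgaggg
Lpar1, chr4:58499415-58499514: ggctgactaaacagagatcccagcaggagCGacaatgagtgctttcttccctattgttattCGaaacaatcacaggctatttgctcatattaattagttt
The regions with the lowest ratios of 6-OHDA to sham were these.
C630028M04Rik, chr4:52051215-52051314: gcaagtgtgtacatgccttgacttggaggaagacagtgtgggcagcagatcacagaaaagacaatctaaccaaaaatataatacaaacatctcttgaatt
Wnt2, chr6:18030831-18030930: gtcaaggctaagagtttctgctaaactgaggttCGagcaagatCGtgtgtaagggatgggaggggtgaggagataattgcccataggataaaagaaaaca
Gm15831, chr5:77122534-77122633: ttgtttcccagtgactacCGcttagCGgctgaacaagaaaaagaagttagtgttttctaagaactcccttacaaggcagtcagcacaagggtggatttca
Gm12408, chr4:45639510-45639609: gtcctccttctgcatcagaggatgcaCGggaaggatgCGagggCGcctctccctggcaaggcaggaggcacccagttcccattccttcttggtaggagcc

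The region 103 bases upstream of Tent4b, which encodes a noncanonical poly(A) polymerase, had a signal of 39.2 in sham, 109 in the 6-OHDA library and 84.6 in the 6-OHDA+NDST3 library. Its log2 ratio of 6-OHDA to sham was 1.47, with a 95% interval from tag counting of 1.09 to 1.86. The neighbouring region 204 bases upstream of the same start rose from 62.2 to 142 (log2 ratio 1.19). These 2 adjoining regions hold 17 and 16 CG dinucleotides in 100 bases each. Another region of Tent4b, on the other side of the start, had 35.4 in sham and 34 after the lesion (log2 ratio -0.06), so the higher signal did not extend over the whole start. Nupr1, a gene induced by cell stress, had 13.3 in sham, 33.5 after the lesion and 33.9 with NDST3 (log2 ratio 1.33, counting interval 0.67 to 2.04). Lpar1 encodes a receptor for lysophosphatidic acid. Its region had 48.8 in sham, 107.5 after the lesion and 101 with NDST3 (log2 ratio 1.14), with a GC content of only 40% and 2 CG dinucleotides. The second region of Lpar1 went from 19.2 to 29.8 (log2 ratio 0.63). The regions were chosen for their ratio to this sham library, so the NDST3 values, set against the same library, are no independent support.

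In the other direction, the region upstream of the uncharacterised gene C630028M04Rik had a signal of 33.4 in sham, 8.5 in the 6-OHDA library and 12 with NDST3 (log2 ratio -1.97, counting interval -2.84 to -1.19). Wnt2 encodes a secreted ligand of the Wnt pathway. Its region had 33 in sham, 16 after the lesion and 27.9 with NDST3 (log2 ratio -1.04). The 2 other start regions of Wnt2 had log2 ratios of 0.43 and 0.17, so its regions did not move one way. The region upstream of the RNA gene Gm15831 went from 78.4 to 42.5 (log2 ratio -0.88). The region of Gm12408 had 22.7 in sham and 13.8 after the lesion, and its counting interval of -1.43 to 0.02 includes 0. The 2 other regions at that start had log2 ratios of -0.32 and 0.83. These 4 regions held between 0 and 3 CG dinucleotides.

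**Figure D1:**
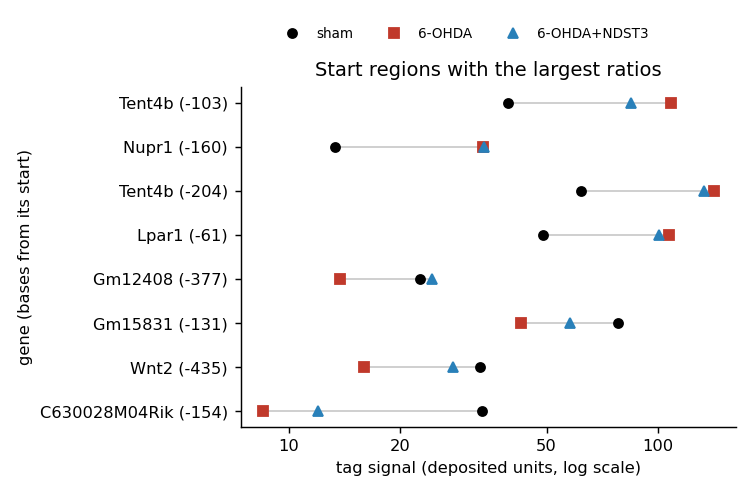
Tag signal (x axis, deposited units, log scale) of the 8 regions upstream of gene starts whose sequences are printed, in the sham, 6-OHDA and 6-OHDA+NDST3 libraries (1 library each, no error bars). Rows name the gene and the distance of the region from its start in bases. The 6-OHDA point lies right of sham in the upper 4 rows and left of it in the lower 4.

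The gene names listed in the table could not be used to place the regions. All listed distances to a gene start lie between -1000 and 951 bases, but on GRCm38, the build named in the labels, only 407 regions lay within 1000 bases of a start of the listed gene. Those regions had a median signal of 68.1 in sham, 73.5 in the 6-OHDA library and 83.9 in the 6-OHDA+NDST3 library. A further 631 regions lay at the start of a gene other than the listed one, with medians of 35.4, 43.5 and 51.9. The remaining 2499 regions lay at no start, with medians of 14.3, 13.5 and 14.8. Where the listed gene was further than 1000 bases away, it was at a median of 124723 bases. Signal was therefore high at GRCm38 starts whether or not the listed name matched, and all genes below are placed on GRCm38, a choice made after these values were seen.

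The lesion library and the sham library were close over most regions. The median signal was 16.9 in sham and 17.2 in the 6-OHDA library. The median log2 ratio was 0.11, the middle 50% of the regions lay between -0.32 and 0.48, and 57.7% of the regions were above 0. The log2 signals of the 2 libraries correlated across regions with a Pearson r of 0.91 (Spearman rho 0.87, n = 3537), which is a description, since the regions come from the same libraries. At least 2-fold higher signal was found in 219 regions (6.19%) and at least 2-fold lower signal in 243 (6.87%). With the columns scaled to the same median, 201 regions were higher (5.68%) and 264 lower (7.46%). Scaled to the same sum, 122 were higher and 343 lower, so the balance between the directions depends on how the libraries are scaled. The same holds for each count above 0 and each median near 0 given here, which use the signal as deposited. The regions nearest to the threshold were of weak or moderate signal. One on chromosome 10 went from 1 to 0.5 and counted as lower. One on chromosome 4 went from 19.2 to 38.5 and counted as higher, and one on chromosome 11 went from 26.5 to 52.8 and did not.

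**Figure D2:**
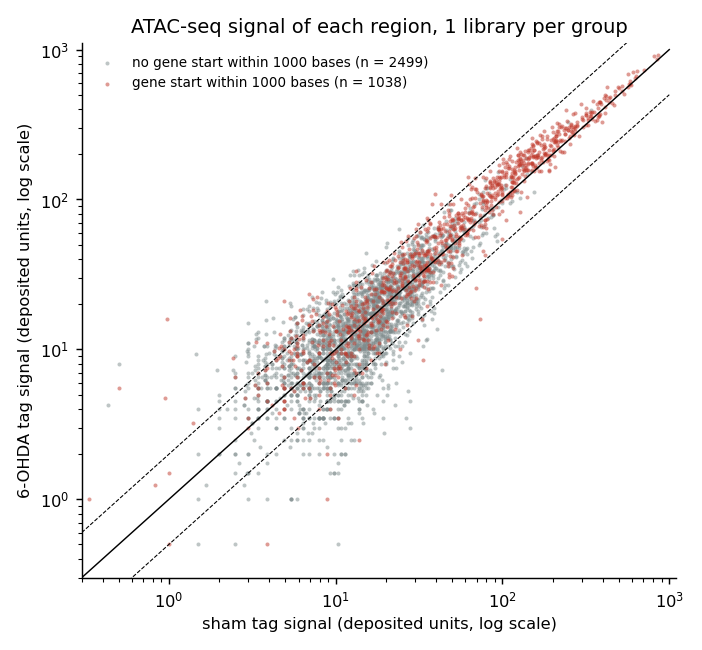
Tag signal of each of 3537 regions in the sham library (x axis) and the 6-OHDA library (y axis), both in deposited units on log scales. Red points have a gene start within 1000 bases (n = 1038) and grey points do not (n = 2499). The solid line marks equal signal and the dashed lines mark a ratio of 2 in either direction. Strong regions lie close to and mostly above the line of equality, and weak regions scatter past both dashed lines.

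Large ratios belonged mostly to weak regions. Of the regions past 2-fold in either direction, 382 had a mean signal under the overall median. In the 354 regions of the strongest of 10 groups by signal, 1 was at least 2-fold higher and 0 lower, and that 1 was the second region of Tent4b. In the 354 weakest, 39 were higher and 83 lower. The spread of the log2 ratio, taken from its quartiles as a standard deviation, was 1.13 in the weakest group and 0.26 in the strongest. A step of about 0.5 units of signal was taken as 1 tag, although the 6-OHDA values are multiples of 0.25. Tag counting alone would then give a spread of 0.66 in the weakest group and 0.11 in the strongest. The observed spread exceeded that of counting in each of 10 equal groups, and no replicate library shows how much of the rest is variation between animals or preparations. The median ratio also moved with signal, from -0.15 in the weakest group (interval of the median over regions -0.26 to 0.02) to 0.25 in the strongest (0.23 to 0.30). The mean that orders the groups contains the 6-OHDA signal itself, so ordering and ratio are not independent. Some rise with signal is built in, and its size was not tested.

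**Figure D3:**
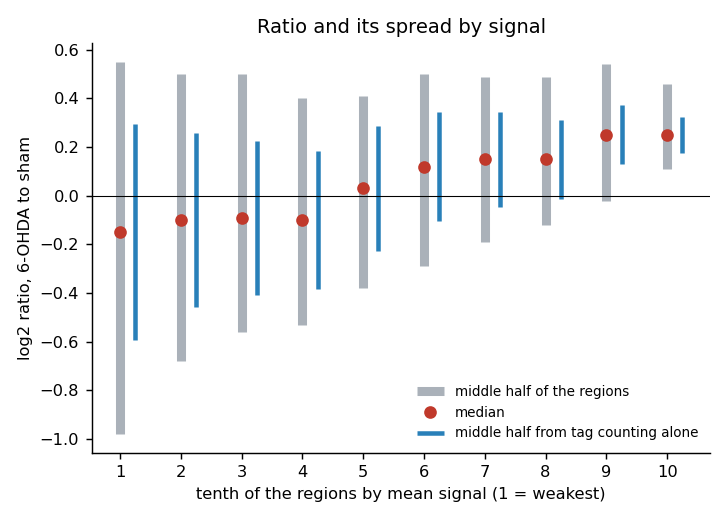
Log2 ratio of 6-OHDA to sham (y axis) in 10 equal groups of regions ordered by mean signal over the 3 libraries (x axis). Grey bars span the middle 50% of the regions, red points are medians, and blue bars show the middle 50% that tag counting alone would give. The grey bars shrink from the weakest to the strongest group and exceed the blue bars in each.

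Regions at gene starts stood higher after the lesion than the rest. The 1038 regions at a start had a median log2 ratio of 0.25, and 767 of them (73.9%) were above 0. At least 2-fold higher were 55 (5.30%) and at least 2-fold lower 19 (1.83%), against 6.19% and 6.87% of all regions. The excess was uneven. The 407 regions at a start of their listed gene had a median of 0.14 (interval of the median 0.10 to 0.17). The 631 regions at the start of another gene had 0.36 (0.31 to 0.40), and regions at no start had 0.02. Exonic regions away from a start had a median of 0.19 (n = 299), intronic regions 0.02 (n = 1440) and intergenic regions -0.06 (n = 760). Of the intergenic regions, 37 were 2-fold higher and 85 were 2-fold lower. By distance, the median was 0.27 within 200 bases of a start (n = 608), 0.13 above 1000 and up to 5000 bases (n = 482) and -0.07 above 20000 and up to 100000 bases (n = 984). The 6-OHDA+NDST3 library, set against the same sham library, gave medians of 0.38 at starts, 0.10 in introns and 0.02 in intergenic regions. Both sets of ratios share the sham library, so the likeness of their order is not independent.

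The ratio also followed base composition. The median log2 ratio was -0.17 in the 290 regions with a GC content of at most 35%, 0.03 between 45% and 50%, and 0.36 in the 229 regions above 70%. Across regions, ratio and GC content had a Pearson r of 0.27 (Spearman rho 0.29, n = 3537), and a description of the same kind gave 0.25 within regions at a start and 0.21 within the rest. At like GC content, starts and other regions did not keep 1 order. Between 55% and 60%, the median was 0.22 at starts and 0.28 elsewhere. Between 60% and 65%, it was 0.20 and 0.36, and between 45% and 50% it was 0.18 and 0.02. At like signal, starts were higher in each of 5 groups, with 0.11 against -0.15 in the weakest and 0.27 against 0.14 in the strongest, but their GC content was higher too (medians of 65.5% and 50.9% in the strongest group). In the 6-OHDA+NDST3 library the ratio to sham likewise ran from -0.24 at the lowest GC content to 0.55 at the highest. The part that GC content has in the difference between starts and other regions was not tested.

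**Figure D4:**
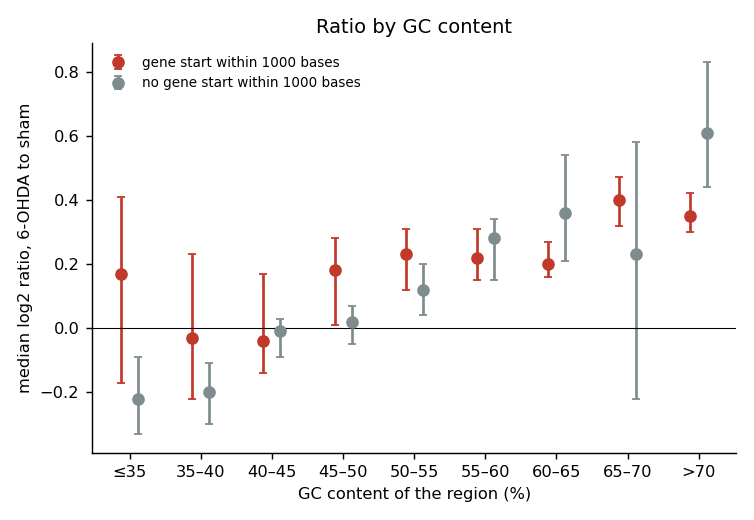
Median log2 ratio of 6-OHDA to sham (y axis) by GC content of the region (x axis, %), for regions with a gene start within 1000 bases (red) and without (grey). Bars are 95% order-statistic intervals of the median over regions and do not show replicate error. The medians above a GC content of 50% are all above 0 in both series, and which of them is higher changes between bins.

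Chromosomes differed as well. The median log2 ratio was highest on chromosome 7 (0.41, 192 regions) and chromosome 11 (0.31, 193 regions), and lowest on chromosome 3 (-0.13, 249 regions) and chromosome 13 (-0.12, 130 regions). The median GC content was 52.5% and 54% on the first pair and 44.2% and 46% on the second. Over the 20 chromosomes, the medians of ratio and of GC content had a Pearson r of 0.60 (Spearman rho 0.50), given as a description.

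Sequence motifs were counted on both strands as plain letters. The GC box GGGCGG, which Sp-family factors bind, was in 11.3% of all regions, in 10.5% of the 354 regions with the highest ratios and in 1.69% of the 354 with the lowest. The TATA element TATAAA was in 5.88% of all, 4.24% of the highest and 9.60% of the lowest. The E box CACGTG was in 2.06%, 3.11% and 0.847%. The AP-1 element, TGAGTCA or TGACTCA, bound by Fos and Jun, was in 2.88%, 3.67% and 2.82%, and its 88 regions away from starts had a median log2 ratio of 0.04. The CCAAT box was in 14.4%, 11% and 14.7%. The GC box and the TATA element differ in GC content themselves, and the median GC content was 50.5% in the highest group, 43.0% in the lowest and 49.0% overall.

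The 10 strongest regions all lay at gene starts and changed little. The strongest was at Snd1, a coactivator and nuclease gene, with 849 in sham, 862 in the 6-OHDA library and 925 with NDST3 (log2 ratio 0.02, counting interval -0.08 to 0.12). Ripk2, a kinase of innate immune signalling, had 856, 920.5 and 852 (log2 ratio 0.11). Rad23b, of nucleotide excision repair, had 807, 903 and 907 (log2 ratio 0.16). The highest ratio among the 10 was 0.27, at Erp44, a chaperone of the secretory pathway.

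The 10 highest ratios among regions with a listed gene, leaving out the 25% with the lowest mean signal, ranged from 1.61 to 4.04, and 3 of them lay at a start. At the start of Cep43, a centrosomal gene, the signal was 0.97 in sham, 16 in the 6-OHDA library and 28.3 with NDST3. The log2 ratio of 4.04 rests on 2 sham tags, and its counting interval ran from 2.05 to 7.13. Tbl3, a ribosome biogenesis factor, had 4.9, 21 and 19.5 (log2 ratio 2.1, counting interval 1.08 to 3.25). An intronic region of Cacna1g, a T-type calcium channel gene, had 5.4, 19.5 and 16.5 (log2 ratio 1.85). An intronic region of St3gal4, a sialyltransferase gene, had 3.81, 21 and 14.9 (log2 ratio 2.46). All 10 were weak in sham, with 2 to 20 tags. The mean used to leave out weak regions includes both lesioned libraries, and the region of Cep43 passed by its signal there. Weak sham signal among the 10 can thus follow from the selection.

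The 10 lowest ratios ranged from -3.22 to -2.05, and 1 of them lay at a start, that of the interferon-induced gene Ifit3b. Its region (chromosome 19, 34607611 to 34607764) had 73.3 in sham, 16 in the 6-OHDA library and 27.4 with NDST3, with a log2 ratio of -2.20 and a counting interval of -2.79 to -1.64. Ifit genes form a cluster of similar copies, and the deposited values do not show how reads that fit more than 1 copy were treated. The lowest ratio was in an intergenic region 18387 bases from Rtn4rl2, a Nogo receptor homolog, with 28 in sham and 3 in each of the other libraries. An intronic region of Tet2, which oxidises methylated cytosine, had 27.2 in sham and 5.25 after the lesion (log2 ratio -2.37). An intronic region of Ntf3, the neurotrophin-3 gene, had 16.6 in sham, 4 after the lesion and 11.4 with NDST3 (log2 ratio -2.05).

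Dopamine neuron genes were hardly covered, as were genes in general. Of the 19300 genes tested for RNA, only 636 had a region at their start, so an empty short list says little about its genes. Of the 25 genes on that list, 0 had a region at their GRCm38 start, and the same held for the lists of astrocyte, oligodendrocyte, endothelial and lymphocyte markers. The identity of the tissue can therefore not be checked from accessibility. Inside the GRCm38 spans of dopamine neuron genes lay 3 intronic regions, of which 1 was at least 2-fold lower. That region, in Aldh1a1, an aldehyde dehydrogenase gene of a subset of dopamine neurons, had 11.3 in sham, 2 in the 6-OHDA library and 5 with NDST3 (log2 ratio -2.50, counting interval -4.49 to -0.95), and it also lies within the RNA gene E030003E18Rik. The region listed under Slc6a3, the dopamine transporter gene, had 24.9 in sham, 8.25 in the 6-OHDA library and 6.19 with NDST3 (log2 ratio -1.59, counting interval -2.56 to -0.82). On GRCm38 it lies in an exon of Slc6a19, an amino acid transporter gene, at 147233 bases from the nearest start of Slc6a3. The region listed under Ndst3, a heparan sulfate sulfotransferase gene, had 6.4, 3.5 and 0.5 and lies 200537 bases from a start of that gene. Ncoa7, a nuclear receptor coactivator gene, held 4 intronic regions with log2 ratios of -0.81, -0.09, -0.03 and 0.48, and all 4 counting intervals included 0.

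Gene groups were read against all regions at a start, whose median log2 ratio was 0.25, with 73.9% above 0 and 5.30% at least 2-fold higher. Medians above this value were found for cytosolic ribosomal protein, ubiquitin and proteasome genes. They were also found for short lists of other kinds, such as ion channel and receptor genes (0.65, 2 regions) and pan-neuronal genes (0.60, 2 regions). Medians below it were found for chaperone, respiratory chain, zinc finger, mitochondrial ribosomal protein and tRNA synthetase genes. Splicing factor (0.17, 6 regions) and transmembrane family genes (0.20, 14 regions) were below it too. Cytosolic ribosomal protein genes had a median log2 ratio of 0.54 over 8 regions, with 0 past 2-fold. Rpl13 had 60.7 in sham, 94.8 in the 6-OHDA library and 143 with NDST3 (log2 ratio 0.64) and Rpl27 had 114, 181 and 179 (log2 ratio 0.67). Rps26 had 108, 106 and 164 (log2 ratio -0.02) at a GC content of 36.4%. Genes of ubiquitin conjugation had a median of 0.51 over 22 regions, of which 21 were above 0 and 2 were 2-fold higher. Of those 2, Rnf20 had only 7.17 in sham and 15.5 after the lesion (log2 ratio 1.11). The stronger was at Rnf114, a ubiquitin ligase gene, with 35.9, 73 and 77.5 (log2 ratio 1.02, 0.61 to 1.45). Proteasome genes had 3 regions, at Psmc4 (log2 ratio 0.55), Psme3 (0.62) and Psmb8 (1.17). Chaperone genes had a median of 0.21 with 12 of 12 regions above 0, led by Dnaja1 at 0.38. Respiratory chain and ATP synthase genes had a median of 0.20 with 8 of 8 above 0, from 0.05 at Ndufaf4 to 0.88 at Atp5l. The group was matched by gene name, and Ndufaf4 encodes an assembly factor, not a subunit. Zinc finger genes had a median of 0.22 over 30 regions, from -0.79 at Zscan12 to 1.11 at Zfp768, with 21 above 0. Mitochondrial ribosomal protein genes had a median of 0.15 over 5 regions, and tRNA synthetase genes a median of 0.01 over 4 regions, of which 2 were above 0. With 1 region per gene, the median of the cytosolic ribosomal protein genes was 0.32 in place of 0.54.

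Solute carrier and homeobox or forkhead genes were centred near 0. Solute carrier genes had a median log2 ratio of -0.04 over 13 regions, from -0.85 at Slc23a4 to 1.18 at Slc16a11, where the signal was only 4.29 in sham and 9.75 after the lesion. Homeobox and forkhead factor genes had a median of -0.03 over 11 regions. Foxp2 had 103 in sham, 103 in the 6-OHDA library and 96.4 with NDST3 at 1 region (log2 ratio 0.00), and Six5 had 3 regions between -0.03 and 0.04. Immediate early and stress genes had a median of 0.26 over 7 regions with 0 past 2-fold. Fosb had 88.8, 130.5 and 182 (log2 ratio 0.56), Klf4 had 91.8, 129 and 141 (log2 ratio 0.49), and Nr4a3 had 99.9, 83.8 and 71 (log2 ratio -0.25) at the lower of its 2 regions. Gpx1, a glutathione peroxidase gene, was the only member of the antioxidant list with a region, at 47.4, 85 and 90.9 (log2 ratio 0.84). No list was tested, and each median describes these libraries only.

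RNA was measured in other libraries of the same model, 2 from sham mice and 1 from lesioned mice. Of the genes with an ATAC region at their start, 636 were tested for RNA with edgeR's quasi-likelihood test and Benjamini-Hochberg adjustment over all 19300 genes. RNA rose in 120 of them (18.9%, against 18.8% of all genes) and fell in 126 (19.8%, against 17.1%), each at an adjusted p under 0.05. The single 6-OHDA library has no replicate, and without either sham library edgeR made 0 calls by adjusted p. At an unadjusted p under 0.05, 124 and 131 genes were then higher and lower without sham replicate 1, and 113 and 113 without sham replicate 2. The median ATAC log2 ratio was 0.24 at genes whose RNA rose, 0.31 at genes whose RNA fell and 0.31 at the 390 genes not called. Across the 636 genes, the ATAC log2 ratio and the RNA log2 fold change had a Pearson r of -0.05 (Spearman rho -0.02), which are descriptions over genes of the same libraries.

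**Figure D5:**
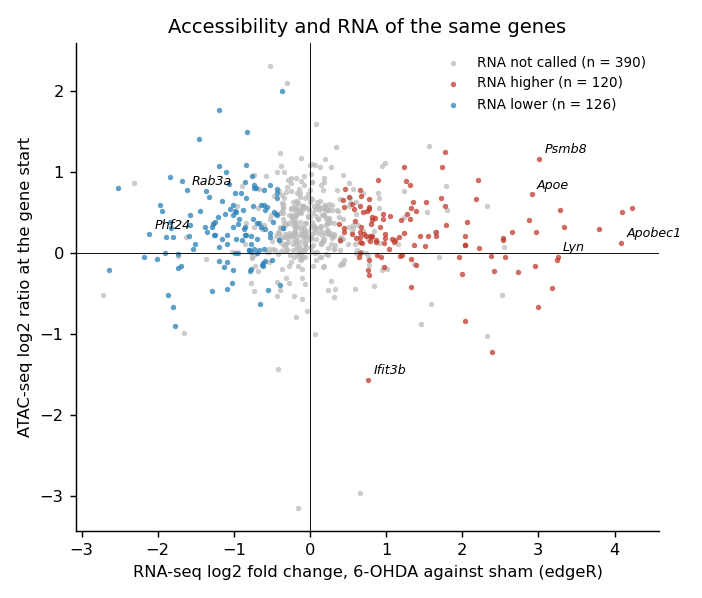
RNA-seq log2 fold change (x axis, edgeR, 2 sham and 1 6-OHDA library) and mean ATAC-seq log2 ratio of the regions at the gene start (y axis, 1 library per group) for 636 genes. Red and blue points are genes whose RNA was higher or lower at an adjusted p under 0.05, and grey points were not called. The points of both colours are centred at a like height above 0.

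The 5 genes with a start region whose RNA rose most, at a mean of at least 1 CPM, were Apobec1, Glipr1, Lpar5, Casp1 and Lyn, and the ATAC log2 ratios at their starts were 0.13, 0.30, 0.32, 0.53 and -0.04. Apobec1, an RNA-editing cytidine deaminase gene expressed in microglia, had 290 and 181 counts in sham and 3613 after the lesion (log2 fold change 4.09, standard error 0.54, edgeR adjusted p = 0.00914). Its start region had a signal of 37.2 in sham and 40.8 after the lesion (log2 ratio 0.13). Lyn, a kinase of immune receptor signalling, had 516 and 486 counts in sham and 4173 after the lesion (log2 fold change 3.25). Its region went from 33.6 to 32.8 (log2 ratio -0.04). Casp1, the inflammasome protease gene, had a log2 fold change of 3.28 and an ATAC log2 ratio of 0.53 with a counting interval of -0.15 to 1.16. None of these 5 genes was past 2-fold in accessibility. Below 1 CPM, Dpep2 and Melk had larger RNA log2 fold changes, of 4.23 and 4.10, with ATAC log2 ratios of 0.56 and 0.51.

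By the same rule, the 5 genes whose RNA fell most were T2, Grm8, Slc5a7, Phf24 and Vit, with ATAC log2 ratios of -0.21, 0.81, -0.04, 0.24 and -0.07. Phf24, a neuronal gene, had 8259 and 13244 counts in sham and 2104 after the lesion (log2 fold change -2.11, standard error 0.16, edgeR adjusted p = 0.00823). Its start region had 62.8 in sham and 74.2 after the lesion (log2 ratio 0.24, counting interval -0.12 to 0.59). Slc5a7, the choline transporter gene, had 1723 and 958 counts in sham and 270 after the lesion (log2 fold change -2.18, standard error 0.58). The sham libraries thus differed for this gene. Its region had 12.3 in sham and 12 after the lesion. Rab3a, a synaptic vesicle GTPase gene from the neuronal list, had an RNA log2 fold change of -1.62 and a region that went from 47.5 to 81.2 (log2 ratio 0.78, counting interval 0.41 to 1.16).

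Of the 29 tested genes with a mean ATAC ratio of at least 2-fold, RNA rose in 4 and fell in 7. Among all 636 genes it rose in 18.9% and fell in 19.8%, and no difference from these shares was tested. Psmb8, an immunoproteasome subunit gene, had 260 and 232 counts in sham and 1744 after the lesion (log2 fold change 3.01, standard error 0.32, edgeR adjusted p = 0.00823). Its start region had 4.57 in sham, 10.2 after the lesion and 16.7 with NDST3 (log2 ratio 1.17, counting interval -0.02 to 2.49). Irgm2, an interferon-induced GTPase gene, had an RNA log2 fold change of 1.73 and an ATAC log2 ratio of 1.07. The other 2 genes that rose were Efemp2, of the extracellular matrix, and Plcb3, a phospholipase gene. Of the 7 tested genes at or below a 2-fold lower ratio, RNA rose in 2 and fell in 0. These 2 were Ifit3b (log2 fold change 0.76, edgeR adjusted p = 0.0178) and Serpinb6b, a serine protease inhibitor gene (log2 fold change 2.39). Apoe, the apolipoprotein gene of astrocytes and reactive microglia, had an RNA log2 fold change of 2.91 and 2 weak regions. They went from 4.68 to 10.5 (log2 ratio 1.17) and from 21.3 to 26 (log2 ratio 0.29), and both counting intervals included 0.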

How the data were processed

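ATAC-seq of mouse brain (1 library per group), RNA-seq (2 sham, 1 6-OHDA and 2 6-OHDA+NDST3 libraries) and H3K27ac CUT&RUN were taken from the deposited tables. The authors trimmed the ATAC-seq reads with Trim Galore, aligned them to mm10, removed mitochondrial reads and duplicates, and called peaks with MACS2, for which the stated command sets the human genome size. They deposited a tag signal per region, whose normalization, replicate pooling and Tn5 offset are not given in the sources used here. For H3K27ac, the deposited signal pools 2 libraries in 1 column. For RNA-seq the authors deposited a read count per gene and TPM values, and 5 FPKM columns were not used.

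Regions were placed on RefSeq GRCm38.p6, since the listed names did not match that build. Log2 ratios were taken with no pseudocount, as deposited and after scaling to the same median, and called at 2-fold. All 3582 6-OHDA values are multiples of 0.25. Signal steps of 0.5 (6-OHDA) and 0.492 (sham, found in 814 low values, 99.1% within 0.05 of a multiple) were taken as 1 tag, and exact (Clopper-Pearson) 95% intervals of the ratio were computed from them. They cover counting error only and rest on this choice of step, since a step of 0.25 would narrow them. The true depth of the libraries is unknown. Intervals of a median are order-statistic intervals over regions.

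Counts were fitted with edgeR 4.0.16 (TMM, filterByExpr, quasi-likelihood) in R 4.3.3 over all 5 libraries, so the lone 6-OHDA library was assumed to vary like the other groups. Totals ranged from 51003699 to 70533326 counts, and 19300 of 20328 genes were tested. The sources do not say whether libraries came from separate animals, so p-values measure the spread between these libraries. DESeq2 1.42.0 was an alternative. Python 3.11.15 was used elsewhere.

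The genes named are those with the 10 highest and 10 lowest scaled ratios, the 10 strongest regions, members of gene lists, markers named by the study, and genes whose RNA changed most. The regions with printed sequences, the 2-fold genes with RNA calls and the choice of GRCm38 starts were added after seeing the data. No sequence from chromosome 18 was printed. Members and lists were chosen with earlier results of these data known.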

Additional observations from a re-analysis of the deposited data

How the results depend on the processing

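The counts at 2-fold depended on weak regions and on the threshold. Without the 25% of regions with the lowest mean signal, 120 regions were higher and 85 lower, and 105 and 94 after scaling to the same median. At a fold of 1.5, the counts were 674 and 545, and 620 and 574 after scaling. With a pseudocount of 1, 133 regions were higher after scaling, and with columns scaled to the same sum 122 were. Regions at a GRCm38 start, an alternative chosen after seeing the data, gave 55 higher and 19 lower. The median log2 ratio of 0.11 was 0.15 without the same 25%. Of 40 alternatives for the medians of 10 gene lists, 38 stayed inside the interval of the median, which is wide for short lists. With 1 region per gene the median of cytosolic ribosomal protein genes went from 0.54 to 0.32 and that of immediate early genes from 0.26 to 0.49. With listed names, immediate early genes had 0.07, solute carriers 0.20 in place of -0.04, chaperones 0.08 in place of 0.21 and zinc finger genes 0.31 in place of 0.22.

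The RNA-seq calls at genes with a region (120 higher, 126 lower) fell to 27 and 30 with the replicate block (the cause was not tested). The labels number the replicates but do not say whether the numbers pair the samples. The deviations of sham and 6-OHDA+NDST3 libraries with the same number correlated at -0.43 across genes, which cannot decide this. With crossed numbers, an alternative that was not planned, the block gave 125 and 132. Leaving out each replicate in turn gave 0 to 124 higher and 0 to 128 lower, with 0 when either sham library was left out. Taking the listed names gave 395 and 364 among 1876 genes. The correlation of ATAC ratio and RNA fold change lay between -0.07 and 0.01 over its alternatives.

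The planned overlap of ATAC and H3K27ac regions was not run, because the H3K27ac table names scaffolds absent from GRCm38. With 1 ATAC library per group and an unknown normalization, a ratio of a weak region was not resolved at this depth.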

Other observations

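Accessibility and H3K27ac were set side by side by gene. At 316 genes with an ATAC region at their GRCm38 start and an H3K27ac region listed under their name, the log2 ratios of 6-OHDA to sham had a Pearson r of -0.10 (Spearman rho -0.09). This is a description over genes from pooled columns, and the build behind the listed H3K27ac names was not checked. In the sham libraries, ATAC signal at a start and RNA level (log2(TPM + 1), which is per length) had a Pearson r of 0.16 over 636 genes.

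Some start regions of at least median signal were lower after the lesion. Ankrd7 had 31 in sham, 11.5 in the 6-OHDA library and 15.5 with NDST3 (log2 ratio -1.43). Cep126, a centrosome and cilium gene, had 35.4, 19.5 and 24 (log2 ratio -0.86) at 1 start and 185, 182 and 178 (log2 ratio -0.02) at its stronger start. Capsl had 128, 82.8 and 91.2 (log2 ratio -0.63). Frzb, a secreted Wnt antagonist gene, had 76.1, 45.2 and 57.5 (log2 ratio -0.75) at 1 region and 74.6, 68 and 58.2 (log2 ratio -0.13) at another. These genes were named after their values were seen.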
